A study of Mus musculus with 17 samples.

Results

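The comparison set 3 arrays of DA1-3b cells that received the p65/RelA fragments 1-361 and 362-549 together (1-361+362-549) against 3 arrays of the same cells that received residues 362-549 alone (362-549). These 6 of the 17 arrays of the series were chosen by the source name in the sample labels, and the contrast asks what differs when the N-terminal fragment is present beside the C-terminal one. DA1-3b is a mouse leukaemia cell line that carries the Bcr-Abl fusion kinase, and the labels give its strain as C3H eOuJ and its medium as DMEM with serum. The other 11 arrays held cells with residues 1-361 alone (1-361, 3 arrays), with the D361E point mutant of p65 (4 arrays) and with wild-type p65 (WT, 4 arrays). They entered the fit to estimate the spread. All 5 groups share the cell line, the medium and a p65 plasmid. The protocol also names an empty plasmid, and cells with it were not analysed here, so levels without any p65 form are not part of this account. The labels give neither the promoter of the plasmids nor the amount of protein made, and they do not say whether the lines were clones. They do not say that the 3 arrays of a group came from separate cultures either, and the spread behind every p-value below may therefore be that of repeat hybridisations.

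RelA is a subunit of NF-kB, the family of transcription factors that switches on genes of inflammation, survival and immune defence. Its N-terminal Rel homology domain binds DNA, pairs with other subunits and is held in the cytoplasm by the IkB inhibitors, while its C-terminal transactivation domains recruit the transcription machinery. The series treats D361E as a form that cannot be cleaved and the 2 fragments as the products of cleavage, so that 362-549 carries the transactivation domains without the DNA-binding part. In myeloid cells NF-kB targets include chemokines, cytokines, adhesion molecules, anti-apoptotic proteins and the pathway's own subunits and inhibitors.

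Levels are log2 processed signal intensities minus the 75th percentile of the array, so that 0 is the level of a probe at that percentile. A difference is the mean of 1-361+362-549 minus the mean of 362-549, given ± SE, and a level is given ± SD (n = 3 arrays). A gene was called at a limma adjusted p under 0.05, and only called genes are said to rise or fall. The arrays of 1-361+362-549 were brighter, with 75th percentiles of 1065, 1214 and 847, against 697, 700 and 636 in 362-549. The share of spots well above background was 51.2% to 53.9% in 1-361+362-549 and 49.8% to 51.3% in 362-549, and 0 spots were saturated. Pairs of arrays correlated across genes at 0.966 to 0.994 within 1-361+362-549, at 0.980 to 0.987 within 362-549 and at 0.943 to 0.973 between the groups (genes are not independent replicates). The 3 arrays of 1-361+362-549 lay on slides 4, 3 and 2 and those of 362-549 on slides 1, 6 and 5. No slide held both groups, so no difference within a slide could be computed, and a fit with slide as a block ties the groups only through arrays of the other groups. Counts with that block are given with the gene lists below.

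Rela itself was read by 1 probe at chr19:5648070-5648129 (mm9), and it did not differ. Its level was 4.94, 4.86 and 4.79 in 1-361+362-549, against 4.80, 4.86 and 4.82 in 362-549, a difference of 0.04 ± 0.11 (limma adjusted p = 0.855), whose sign turned to -0.08 with normexp background correction. Whether that probe lies in the part carried by the plasmids was not looked up, so it checks neither label. Those genes of the cell line's identity that were tested were well above background on all 6 arrays, and none was called. They were Abl1 and Bcr, the 2 partners of the fusion kinase, Ptprc (the leukocyte antigen CD45), the interleukin-3 receptor chain Il3ra, the integrin Itgam and the myeloid transcription factor Spi1. Spi1 (-0.72 ± 0.24), Abl1 (0.50 ± 0.17) and Itgam (-1.34 ± 0.46) had adjusted p of 0.0579, 0.0603 and 0.0616. Cd34 was looked up as well and was not among the genes tested.

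Of 15259 genes tested, 2223 were called (14.6%), of which 863 were higher in 1-361+362-549 (5.66% of the genes tested) and 1360 were lower (8.91%). More than 2-fold apart were 295 of the higher and 539 of the lower genes, and 278 called genes differed more than 4-fold. The 2 groups did not overlap on any array for 4415 genes (28.9%), 2172 of them called. An unadjusted p under 0.05 was reached by 4852 genes, where 763 would be expected with no difference. The count depended on single arrays. It was 972, 879 and 4040 without replicate 1, 2 or 3 of 1-361+362-549, and 1437, 1942 and 1116 without replicate 1, 2 or 3 of 362-549. With slide as a fixed block 269 genes were called (94 higher, 175 lower), 265 of them among the 2223. Sample titles start with a number, and 6 consecutive numbers were taken as a round. A block for that round gave 6076 calls, which included all 2223. Without scaling between arrays the median difference of all genes was 0.58, against -0.03 as reported, and 94.2% of the calls were higher, against 38.8%. With quantile normalization 48.4% of 1871 calls were higher.

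**Figure D1:**
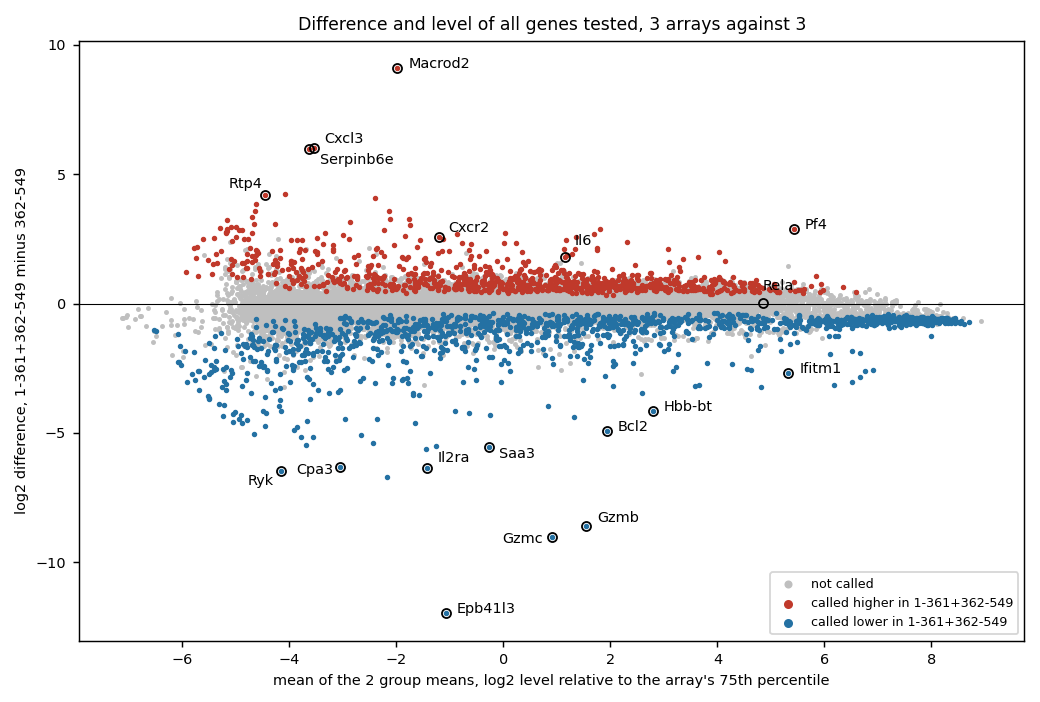
Each point is 1 of 15259 genes, with the mean of the 2 group means on the x axis and the log2 difference (1-361+362-549 minus 362-549) on the y axis, and genes called higher are red and genes called lower are blue. Macrod2 (9.11) stands at the top and Epb41l3 (-11.98) at the bottom, Rela lies at 0.04, and among the brightest genes on the right many are called lower by a small amount.

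The largest rises with both fragments were those of Macrod2, an enzyme that removes ADP-ribose from proteins, of the neutrophil-attracting chemokine Cxcl3 and of Serpinb6e, a member of the serine protease inhibitor family. Macrod2 had levels of 2.55, 2.51 and 2.66 in 1-361+362-549, against -6.54, -6.53 and -6.54 in 362-549. It was thus at least 149-fold higher (difference 9.11 ± 0.24, adjusted p = 5.37e-12), since it was not well above background on any array of 362-549. The 2 groups lay far apart and each was tight. The array held 6 Macrod2 probes on chromosome 2 (mm9). The 2 at the far end of the gene, at chr2:142215725-142215784 and chr2:142218642-142218701, had mean levels of 3.13 and 2.57 in 1-361+362-549, against -6.33 and -6.54 in 362-549, where neither was well above background. The 4 others, between 140245667 and 142060111, were not well above background on any of the 17 arrays.

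Cxcl3 was read at -0.49, -1.34 and 0.23 in 1-361+362-549, against -6.69, -6.54 and -6.42 in 362-549, at least 17.3-fold higher (6.02 ± 0.49, adjusted p = 1.12e-06). Serpinb6e was read at -0.44, -0.26 and -1.24 in 1-361+362-549, against -6.63, -6.60 and -6.61 in 362-549, at least 16.0-fold higher (5.97 ± 0.45, adjusted p = 5.79e-07). For both genes all arrays of 362-549 sat near the floor of the measurement. In cells with 1-361 alone the levels averaged -6.66 for Macrod2, -5.60 for Cxcl3 and -5.16 for Serpinb6e. No array of 1-361 was well above background for any of them. The difference of 1-361+362-549 from 1-361 was called for each (adjusted p = 4.37e-12, 8.66e-06 and 1.19e-05). These genes passed the background filter through 1-361+362-549 alone, so those calls follow in part from that filter and are not separate evidence.

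Inha, the alpha chain of inhibin, was at least 6.40-fold higher, and Rtp4, an interferon-inducible chaperone of membrane receptors, at least 4.89-fold. Slc17a8, the vesicular glutamate transporter VGLUT3, rose by 4.08 ± 0.24 (adjusted p = 3.18e-08), with 2 of 3 arrays of 362-549 well above background. The bounds were lower for Glt28d2 (at least 3.84-fold), for the deubiquitinase family gene Usp17lc (at least 3.49-fold) and for the tripartite motif gene Trim66 (at least 2.16-fold). A second Usp17lc probe, at chr7:110567420-110567479 (mm9), was not well above background on any of the 17 arrays. Rufy4 rose by 3.58 ± 0.38, and Gbp3, a guanylate-binding protein, by 3.14 ± 0.47 (2 of 3 arrays of 362-549 well above background for each). Mylk, the myosin light chain kinase, rose by 3.28 ± 0.28 at the probe that stands for it, while its other probe differed by -0.44, so the gene's direction depends on the probe. Among these 12 genes Rtp4 lost its call with slide as a block, and the other 11 kept it. With normexp background correction Inha, Rtp4, Glt28d2, Usp17lc and Trim66 were not called.

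The largest fall was that of Epb41l3, a protein that ties membrane proteins to the actin skeleton. Its levels were -7.38, -7.83 and -5.98 in 1-361+362-549, against 4.95, 4.79 and 5.02 in 362-549, at least 1124-fold lower (-11.98 ± 1.06, adjusted p = 2.87e-06), read by 1 probe at chr17:69639235-69639294 (mm9). Here 362-549 was the group that stood alone: Epb41l3 averaged -6.17 in 1-361, -4.94 in D361E and -5.41 in WT. Fndc4, a secreted factor with a fibronectin domain, had the same layout. It was at least 16.1-fold lower in 1-361+362-549, at -6.37 ± 1.23 against -1.21 ± 0.31 in 362-549, and averaged -6.82 in 1-361. A second Fndc4 probe overlaps the first, at chr5:31595210-31595269 (mm9). It averaged -6.46 in 362-549 and was not well above background on any of the 17 arrays, so the probes of Fndc4 disagree. For both genes 1-361 minus 362-549 was called as well (adjusted p = 4.51e-05 and 2.04e-05), while 1-361+362-549 minus 1-361 was not (0.59 and 0.568). Both genes passed the background filter through 362-549 alone. No array of 1-361 or of 1-361+362-549 was well above background for either. The last comparison thus sets 2 undetected levels side by side and cannot show that they are alike.

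The granzymes Gzmc and Gzmb, serine proteases of cytotoxic granules, came next. Gzmc was read at -3.91, -3.59 and -3.31 in 1-361+362-549, against 4.90, 5.43 and 5.97 in 362-549 (-9.04 ± 0.39, adjusted p = 1.3e-09, 525-fold). Gzmb was read at -2.89, -2.66 and -2.69 in 1-361+362-549, against 4.93, 6.13 and 6.48 in 362-549 (-8.59 ± 0.49, adjusted p = 2.92e-08, 386-fold). All 6 arrays were well above background for both, and here 1-361+362-549 was the group that stood alone. Gzmc averaged 5.38 in 1-361, 4.54 in D361E and 2.95 in WT, and Gzmb averaged 4.88, 4.59 and 3.89 in those groups.

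Il2ra, the alpha chain of the interleukin-2 receptor and a gene that both NF-kB and STAT5 are known to drive, fell by 6.35 ± 0.48 (adjusted p = 5.67e-07). It was read at -4.92, -4.91 and -3.99 in 1-361+362-549 (2 of 3 arrays well above background), against 2.14, 2.11 and 0.98 in 362-549. Ryk, a Wnt receptor related to receptor tyrosine kinases, was at least 19.5-fold lower, F13a1, the A chain of coagulation factor XIII, at least 19.3-fold, and Cd200r3, a receptor of basophils and mast cells, at least 18.8-fold. A second F13a1 probe, at chr13:37063829-37063888 (mm9), was not well above background on any of the 17 arrays. The mast cell protease Cpa3 fell by 6.33 ± 0.38, the acute-phase protein Saa3 by 5.55 ± 0.60, the lectin Itln1 by 5.49 ± 0.33 and Tph1, which starts serotonin synthesis, by 5.38 ± 0.28. For Cpa3 and Tph1, 1 of 3 arrays of 1-361+362-549 was well above background. All 12 falls kept their call with slide as a block and without each array in turn, and Fndc4 lost it with normexp background correction.

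**Figure D2:**
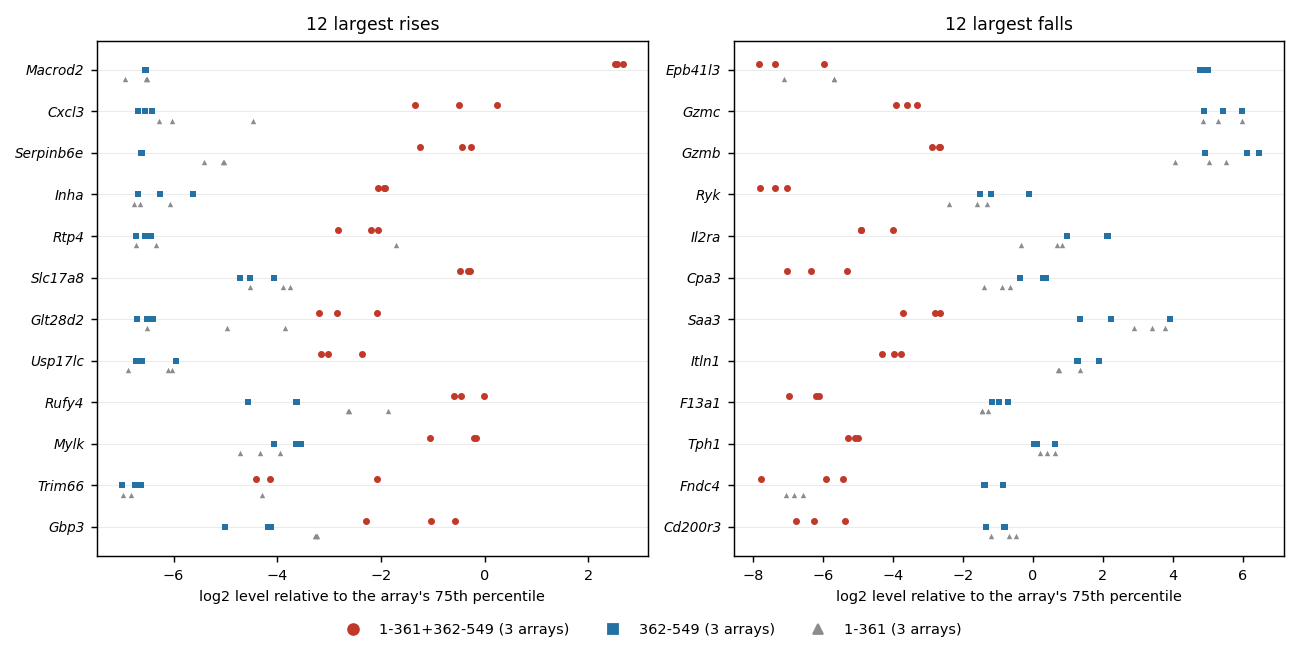
Each row is 1 gene and each point 1 array, with the log2 level on the x axis, for 1-361+362-549 (red circles), 362-549 (blue squares) and 1-361 (grey triangles). The red points stand clear of the blue ones in all 24 rows, and the grey ones lie with the red for Epb41l3 and Fndc4.

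Among NF-kB subunits the 2 genes of the non-canonical pair rose and Rela did not. Relb, which pairs with the product of Nfkb2, was read at 1.29, 1.37 and 0.87 in 1-361+362-549, against -0.59, -0.84 and 0.09 in 362-549 (1.62 ± 0.23, adjusted p = 0.000245). Of its other probes 1 differed by 1.73 and 1, at chr7:20203058-20203117 (mm9), by 0.015, so the probes of Relb disagree. Nfkb2, the precursor of p52, was read at 1.66, 1.68 and 0.98 in 1-361+362-549, against 0.50, 0.16 and 0.86 in 362-549 (0.93 ± 0.20, adjusted p = 0.00798). The groups did not overlap for either, though for Nfkb2 the third arrays of both groups lay close together. Nfkb1, the precursor of p50, differed by 0.04 ± 0.21. Of the 4 subunits tested 2 rose and 0 fell (5.66% and 8.91% over all genes), and Relb kept its call with the slide block while Nfkb2 lost it.

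Of 23 activating kinases and adaptors tested, 2 rose and 1 fell, 13% of the list and near the 14.6% of all genes, with a median difference of 0.16 (-0.03 over all genes). The IkB kinase-related kinase Ikbke rose by 0.88 ± 0.21 and the death-receptor kinase Ripk1 by 0.81 ± 0.20, while the interleukin-1 receptor kinase Irak2 fell by 0.64 ± 0.16. All 3 calls were lost with the slide block and without replicate 1 of 1-361+362-549, while the round block gave 7 rises and 6 falls in the list. Of 17 inhibitors and feedback genes, Nfkbie rose (0.73 ± 0.17) and Socs1 fell (-2.06 ± 0.29, adjusted p = 0.000275), 11.8% of the list against 14.6% of all genes, and the median was -0.02. Neither was called with the slide block. Nfkbie encodes the inhibitor IkB epsilon and lost its call without replicate 1 of 362-549, and Socs1 encodes a brake on cytokine signalling. The main feedback inhibitors were not called: Nfkbia (IkB alpha) differed by 0.53 and Tnfaip3 (the deubiquitinase A20) by 0.58.

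NF-kB target genes moved both ways. Of 49 tested, 14 rose and 9 fell, 46.9% of the list against 14.6% of all genes, and the median difference was 0.09, close to the -0.03 of all genes. The counts were 7 and 7 without replicate 1 of 1-361+362-549, 8 and 6 without replicate 2, 3 and 5 with slide as a block, 5 and 6 with the 6 arrays alone, and 4 and 5 with normexp background correction. The cytokine Il6 was read at 1.79, 2.02 and 2.35 in 1-361+362-549, against -0.22, 0.03 and 0.98 in 362-549 (1.79 ± 0.32, adjusted p = 0.00208). Olr1, a receptor for oxidised lipoprotein, rose by 2.31 ± 0.28 (adjusted p = 5.88e-05, 1 of 3 arrays of 362-549 well above background), and Bcl2a1d, an anti-apoptotic BCL2 relative, by 1.45 ± 0.23. Both groups were apart on every array for these 3 genes.

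Among the ligands of the tumour necrosis factor family, Tnf, Lta and Ltb rose by 1.12 ± 0.28, 1.53 ± 0.39 and 1.00 ± 0.24 (adjusted p = 0.0167, 0.0176 and 0.0141). Tnf was read at -0.49, -0.36 and -1.43 in 1-361+362-549, against -1.87, -1.57 and -2.19 in 362-549, so that replicate 3 of 1-361+362-549 lay just above the other group. For Lta 1 of 3 arrays of 362-549 was well above background. These 3 calls were lost without replicate 1 or 2 of 1-361+362-549, and without replicate 3 (Tnf), 2 (Lta) or 1 (Ltb) of 362-549. The chemokine Cxcl10, a target of interferon as well, rose by 1.72 ± 0.40 (adjusted p = 0.0117), with -0.18, -0.13 and -1.54 in 1-361+362-549, against -2.27, -2.34 and -2.41 in 362-549. Its call was also lost without replicate 1 or 2. The pattern receptor Tlr2 (0.99 ± 0.23), the small GTPase Rnd1 (0.91 ± 0.25), the adhesion molecule Icam1 (0.87 ± 0.28) and the inhibitor of apoptosis Birc3 (0.61 ± 0.18) made up the smaller rises. The calls of Rnd1, Icam1 and Birc3 were each lost without any 1 of 4 of the 6 arrays, and Rnd1 was the called target whose groups overlapped.

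The falls among target genes were larger. Besides Il2ra, the acute-phase gene Saa3 was read at -2.67, -2.79 and -3.71 in 1-361+362-549, against 1.36, 2.22 and 3.91 in 362-549 (adjusted p = 2.22e-05). The chemokine Ccl4 was read at -3.53, -3.89 and -2.63 in 1-361+362-549, against -0.20, -0.09 and 0.83 in 362-549 (-3.53 ± 0.42, adjusted p = 5.24e-05). Ccr7, the receptor that guides cells to lymph nodes, fell by 2.89 ± 0.46 and Csf1, the macrophage growth factor, by 2.22 ± 0.26. Neither group crossed the other for these genes, and their calls were kept without each array in turn. Ccl5 fell by 1.27 ± 0.32, the early response gene Ier3 by 0.77 ± 0.18 and the kinase Plk3 by 0.71 ± 0.18, and these calls were lost without replicate 2 of 1-361+362-549. Those of Ccl5 and Plk3 were also lost without replicate 1 of that group or replicate 3 of 362-549. Ccl3, the remaining call among the 9, was not well above background on any of the 6 arrays, so no difference is given, and its call was lost with normexp background correction and with the slide block.

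**Figure D3:**
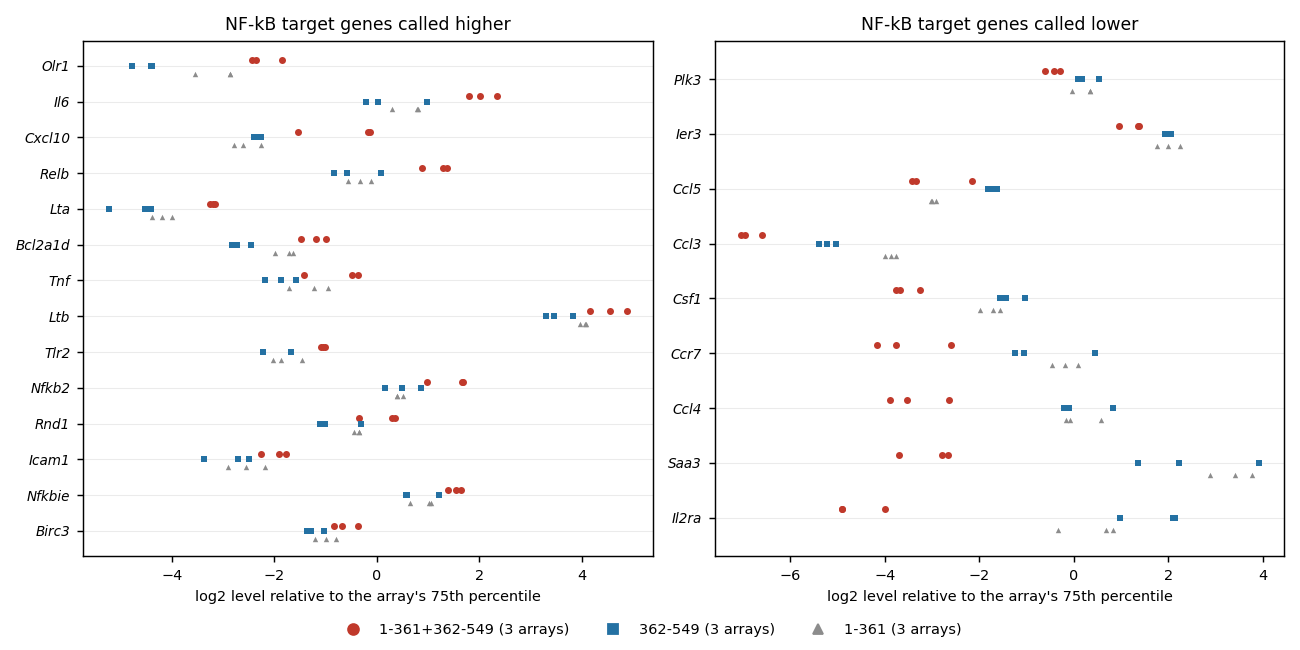
The 23 called NF-kB target genes, rises on the left and falls on the right, with the log2 level of each array on the x axis for 1-361+362-549 (red circles), 362-549 (blue squares) and 1-361 (grey triangles). The falls of Il2ra, Saa3 and Ccl4 span more than any rise, the largest of which is that of Olr1 (2.31).

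Promoter stretches of called targets are shown because NF-kB dimers bind DNA at a short site, and the sequences let the reader compare genes that rose with genes that fell. RefSeq promoters (build GRCm38.p6, 250 bases before to 50 after each start) were matched by symbol for 39 of the 49 targets. They were searched on both strands for GGGNNNNNCC, where matches on the 2 strands can overlap. It is a loose pattern, held by 65.3% of the 12274 promoters of all genes tested. Of the promoters of the risen targets 12 of 14 held it, of the fallen targets 4 of 6 and of targets not called 19 of 30 (63.3%). Some genes, Nfkb2 among them, have several promoters. Counted by gene, 10 of 12 risen targets (83.3%) and 4 of 6 fallen ones (66.7%) held it. Targets not called held it in 17 of 21 (81.0%) and all genes tested in 69.8%, so by gene risen and uncalled targets were alike. Shown, 5′ to 3′ and up to the start site at most, are the 5 risen and the 2 fallen targets with the smallest adjusted p among those with a match, with every whole match in capitals.
Il6, rose, chr5:30013036-30013113, + strand: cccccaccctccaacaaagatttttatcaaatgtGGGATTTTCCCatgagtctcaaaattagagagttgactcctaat
Nfkb2, rose, chr19:46304692-46304736, + strand: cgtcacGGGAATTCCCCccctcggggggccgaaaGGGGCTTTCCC
Tlr2, rose, chr3:83841736-83841815, - strand: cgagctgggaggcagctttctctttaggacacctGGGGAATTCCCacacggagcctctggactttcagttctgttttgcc
Cxcl10, rose, chr5:92348948-92349027, - strand: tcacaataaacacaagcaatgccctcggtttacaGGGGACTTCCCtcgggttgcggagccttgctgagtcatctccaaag
Nfkbie, rose, chr17:45555579-45555658, + strand: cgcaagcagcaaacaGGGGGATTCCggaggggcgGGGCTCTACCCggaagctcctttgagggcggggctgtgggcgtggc
Il2ra, fell, chr2:11642557-11642636, + strand: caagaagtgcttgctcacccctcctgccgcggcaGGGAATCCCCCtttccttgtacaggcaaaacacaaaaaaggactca
Csf1, fell, chr3:107760470-107760541, - strand: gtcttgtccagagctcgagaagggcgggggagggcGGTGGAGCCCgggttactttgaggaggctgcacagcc
The pattern thus occurs in promoters of genes that moved in either direction, and a match of letters is not evidence of binding.

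Chemokines and cytokines changed in both directions. Of 27 tested, 9 rose and 9 fell (5.66% and 8.91% over all genes), and the median was -0.34, -0.09 with quantile normalization and 0.26 without scaling. Besides Cxcl3, the platelet chemokines Pf4 and Ppbp rose by 2.88 ± 0.22 (adjusted p = 5.58e-07) and 2.68 ± 0.55, and Tnfsf13b, the B cell survival factor BAFF, by 1.41. The STAT5-driven cytokine Osm fell by 3.03 ± 0.31 (adjusted p = 1.41e-05) and its relative Lif by 2.18, while Ccl17 fell by 1.53 ± 0.16 and Il16 by 1.03. Il4 was at least 3.30-fold lower, not well above background on any array of 1-361+362-549. With the slide block 2 rises and 4 falls were left.

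Of 25 cytokine and chemokine receptors, 6 rose and 6 fell (5.66% and 8.91% over all genes), with a median of 0.03. Cxcr2, the receptor for Cxcl3 and Ppbp, was read at 0.06, -0.03 and 0.22 in 1-361+362-549, against -1.83, -3.10 and -2.53 in 362-549 (2.57 ± 0.30, adjusted p = 4.91e-05). The 3 arrays of 1-361+362-549 lay close together, all above 362-549. The chains of the interleukin-2 receptor parted. Il2rg, the common gamma chain, rose by 1.49 ± 0.23 and Il2rb by 0.92, while the alpha chain Il2ra fell. The common beta chains of the interleukin-3 receptor family, Csf2rb and Csf2rb2, fell by 0.98 and 0.90, Cxcr4 by 0.67 and Tnfrsf1b by 0.87 (2 of 3 arrays of 1-361+362-549 well above background). Il10rb (1.42), Ifngr2 (0.92) and Epor (0.56 ± 0.12) rose. With the slide block 1 rise and 2 falls were left.

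Among interferon-stimulated genes more rose than fell. Of 49 tested, 23 rose, 4 fell and 22 were not called, 55.1% of the list against 14.6% of all genes, and the median was 0.51, 0.60 with quantile normalization and 1.11 without scaling, where all genes shifted by 0.58. Mx2, an antiviral GTPase, was read at -1.0, -1.29 and -1.56 in 1-361+362-549, against -3.07, -3.75 and -3.50 in 362-549 (2.16 ± 0.26, adjusted p = 6.96e-05). Samd9l, an antiviral restriction factor, was read at 1.00, 0.94 and 0.71 in 1-361+362-549, against -0.14, -0.10 and -0.04 in 362-549 (0.98 ± 0.12, adjusted p = 8.61e-05). The 2 groups were clear of each other for both. The regulator Irf7, which drives interferon genes, rose by 2.04 (2 of 3 arrays of 362-549 above background), the RNA sensor synthetases Oas2 by 2.36 and Oas1a by 1.25, the ubiquitin-like Isg15 by 1.84, the exonuclease Isg20 by 1.82, the RNA sensor Ddx58 (RIG-I) by 1.17 and Irf9, the DNA-binding part of the interferon-activated complex, by 0.81. Ifit1, which binds foreign RNA, and the nucleic acid sensor Zbp1 were at least 1.87-fold and 1.65-fold higher, since no array of 362-549 was well above background.

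The 4 falls among interferon-stimulated genes were those of Gbp4, at least 8.52-fold lower (adjusted p = 6.07e-06), Ifitm1 (-2.70 ± 0.15, adjusted p = 1.79e-08), Phf11b (-1.41, 2 of 3 arrays of 1-361+362-549 well above background) and Ifitm6, for which no fold is given because it was not well above background on any of the 6 arrays. Ifitm1, which blocks viral entry, was read at 3.89, 4.12 and 3.92 in 1-361+362-549, against 6.69, 6.75 and 6.58 in 362-549. Gbp3 and Gbp4, members of 1 GTPase family, moved in opposite directions. Usp18, Stat2, Irf1 and Ifitm3 were among those not called, at -0.47, -0.43, 0.15 and -0.46. Without replicate 1 of 1-361+362-549 the rises numbered 14, without replicate 2 they numbered 15, and with the slide block 4 rises and 2 falls were left (median 0.59). Antigen presentation, which interferon also drives, showed 0 rises and 1 fall among 24 genes, with a median of -0.12. That is 4.17% of the list, against 14.6% of all genes. The fall was that of Icosl, a T cell costimulator (-1.09 ± 0.29), and its call was lost without replicate 1 or 2 of 1-361+362-549.

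**Figure D4:**
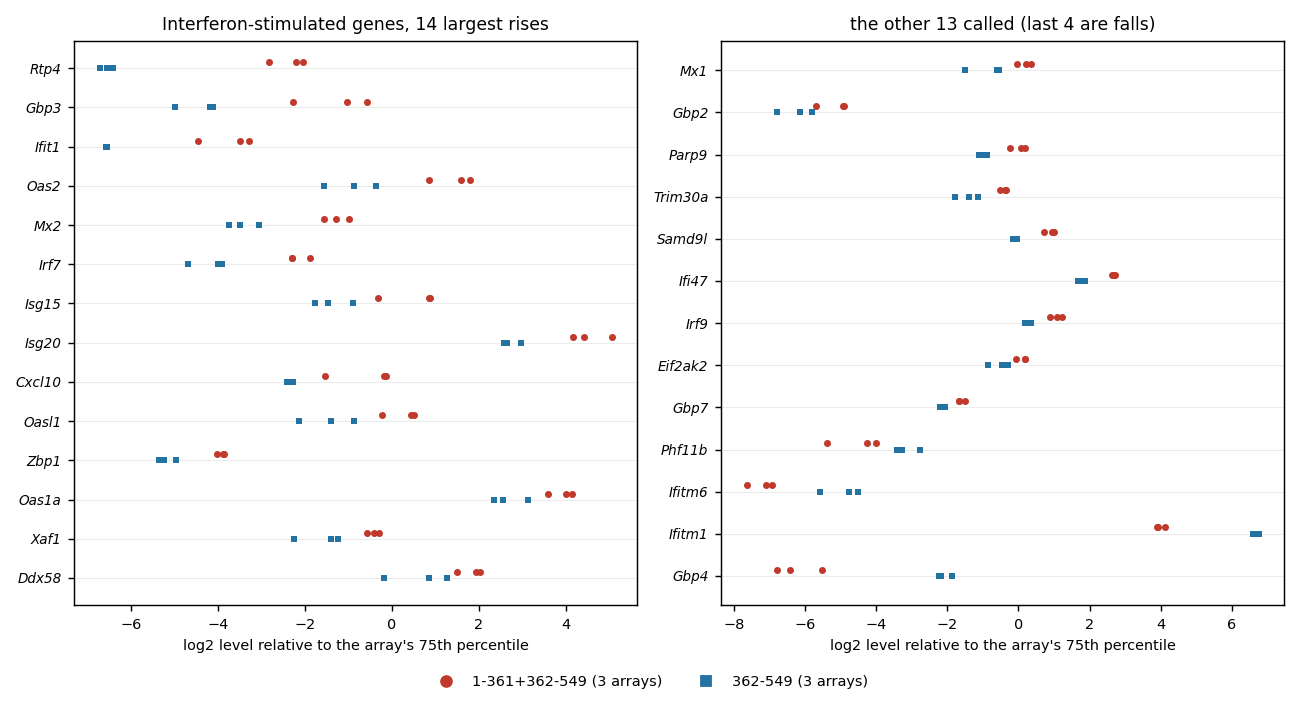
The 27 called interferon-stimulated genes in order of their difference, with the log2 level of each array on the x axis for 1-361+362-549 (red circles) and 362-549 (blue squares). In the 23 upper genes the red points lie to the right of the blue ones, and in Phf11b, Ifitm6, Ifitm1 and Gbp4 they lie to the left.

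Several granule proteases fell. Of 17 tested, 0 rose, 7 fell and 10 were not called (5.66% higher and 8.91% lower over all genes), with a median of -0.84, and 6 of the falls were left with the slide block and 11 were called with the round block. Besides Gzmc, Gzmb and Cpa3, the mast cell chymases Cma1 and Mcpt4 fell by 4.22 ± 0.28 (adjusted p = 1.62e-07) and 2.90 ± 0.37. The eosinophil granule gene Epx was at least 6.76-fold lower and Prg2 fell by 2.89 ± 0.76. The call of Prg2 was lost without replicate 1 or 2 of 1-361+362-549 and without replicate 2 or 3 of 362-549. Perforin (Prf1, -0.63), granzymes K and M (Gzmk 0.31, Gzmm -0.51), the neutrophil proteases Elane (-0.42) and Prtn3 (-0.70) and the proteoglycan Srgn (-0.96) were not called.

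Of 8 markers of mast cells and basophils tested, 4 fell and 0 rose (8.91% and 5.66% over all genes). Cpa3, Cma1 and Mcpt4 among them are the granule genes already given above. The other was Fcer1a, the alpha chain of the IgE receptor (at least 3.59-fold lower). The summed level of the 11 markers on the array, in multiples of the 75th percentile, was 28.8 to 37.2 in 1-361+362-549 and 49.3 to 49.9 in 362-549. In 362-549 the log2 levels of Cpa3, Cma1, Mcpt4 and Fcer1a averaged 0.10, 1.47, -2.18 and -3.37. Most of the sum, and of its difference between the groups, thus came from brighter markers that were not called. The defining markers Ms4a2, Kit and Mcpt8 were not well above background on any of the 6 arrays. In such bulk samples fewer cells of a type and less RNA per cell cannot be told apart.

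Globin and stefin genes, which lie in clusters of near-identical copies whose probes can share signal, fell in part. Of 8 globin genes 6 fell and 0 rose (8.91% and 5.66% over all genes), with a median of -2.60. The slide block left 4 of these falls. The adult beta globin Hbb-bt was read at 0.77, 0.51 and 0.91 in 1-361+362-549, against 4.47, 4.97 and 5.16 in 362-549 (-4.14 ± 0.34, adjusted p = 1.36e-06). Hbb-bs, with 1 of 3 arrays of 1-361+362-549 above background, fell by 5.09 ± 0.63, Hbb-b2 by 4.37 ± 0.35 and the embryonic Hbb-bh1 by 3.53 ± 0.39. The groups did not overlap for any of these. Hbb-bt averaged 2.56 in 1-361, between the 2 groups, and -0.60 in WT. Klf1, the transcription factor of the globin genes, fell by 1.08 ± 0.19, while Epor, the erythropoietin receptor, rose by 0.56. The calls of Klf1 and Epor were lost with the slide block. The 10 erythroid markers summed to 58.9 to 92.3 in 1-361+362-549 and 138 to 247 in 362-549. Of the 7 tested 4 fell and 1 rose (8.91% and 5.66% over all genes).

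Of 9 stefin A and cystatin-like protease inhibitors, 6 fell and 0 rose (8.91% and 5.66% over all genes). Their median was -2.95, and 4 falls were left with the slide block. Cstdc4 was at least 10.2-fold lower, Stfa1 at least 8.64-fold, Stfa3 at least 3.66-fold, Stfa2 at least 3.01-fold and Stfa2l1 at least 2.95-fold, none of them well above background in 1-361+362-549. Cstdc5 fell by 2.90 (2 of 3 arrays well above background). The more widely expressed cystatins Cst3, Cst7 and Cstb differed by -0.27, -0.04 and 0.20 and were not called. With normexp background correction 0 of the 9 were called, and the median was -0.56.

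Megakaryocyte and platelet markers went the other way, with 4 of 7 tested higher and 0 lower (5.66% and 8.91% over all genes). Pf4, platelet factor 4, was read at 6.83, 6.56 and 7.24 in 1-361+362-549, against 3.87, 4.13 and 3.98 in 362-549. Itgb3, the integrin chain of the fibrinogen receptor, rose by 1.60 ± 0.26 and Gp1ba, a chain of the von Willebrand receptor, by 1.15 ± 0.24, besides Ppbp. The partner chain of Itgb3, Itga2b (-0.61), and Gp9 (0.35) were not called. The 9 markers summed to 134 to 208 in 1-361+362-549 and 42.5 to 48.7 in 362-549, and 2 rises, Pf4 among them, were left with the slide block. The level of Pf4 in 1-361 was 5.85, between the 2 groups, and both steps were called (adjusted p = 0.00768 for 1-361+362-549 minus 1-361 and 0.000286 for 1-361 minus 362-549).

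Markers of other cells were given side by side, and over all genes 5.66% rose and 8.91% fell. Of 6 T cell markers 3 fell and 0 rose: Cd3d by 1.25 ± 0.12 and Lat by 0.72 ± 0.22, and Cd3g was at least 4.92-fold lower. The call of Lat was lost without any array except replicate 3 of 1-361+362-549. The sums over 10 markers were 7.13 to 11.1 in 1-361+362-549 and 12.0 to 14.7 in 362-549, with Cd247, Cd8a and Zap70 not well above background in either group. Of the 2 B cell markers tested, Cd79b rose by 0.70 ± 0.17 and Vpreb1 by 0.68 ± 0.20, with sums of 2.36 to 2.72 in 1-361+362-549 and 1.34 to 1.77 in 362-549, and Ms4a1 and Pax5 were not above background. Both B cell calls were lost with the slide block and with the 6 arrays alone, that of Cd79b also without replicate 3 of 362-549, and that of Vpreb1 without replicate 1 or 2 of 1-361+362-549 or replicate 1 of 362-549. The macrophage antigen Adgre1 (F4/80) was at least 20.8-fold lower, 1 of 4 markers tested. Eosinophil markers fell in 2 of 3, and neutrophil, dendritic and endothelial markers had 0 calls of 1, 3 and 3. No natural killer or fibroblast marker passed the filter. Whether other cells had a part in these results was not tested.

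STAT5 is a transcription factor that cytokine receptors and Bcr-Abl activate. Of 27 STAT5 and Bcr-Abl output genes tested, 0 rose, 7 fell and 20 were not called (5.66% higher and 8.91% lower over all genes), and the median was -0.40, and 0.21 without scaling, where all genes shifted by 0.58. Socs3, a feedback inhibitor of cytokine signalling, was read at -0.27, -0.39 and -0.19 in 1-361+362-549, against 1.17, 1.27 and 1.52 in 362-549 (-1.60 ± 0.16, adjusted p = 7.8e-06). Socs1 was read at 0.51, 0.69 and 0.56 in 1-361+362-549, against 2.37, 2.50 and 3.09 in 362-549. For both the groups were far apart. Cish, another STAT5-induced inhibitor, fell by 2.35, the helix-loop-helix factor Id1 by 1.07 ± 0.14 and Stat5b by 0.64. The serine kinases Pim1 (-0.88) and Pim2 (-2.30), also STAT5 targets, were not called, nor was Socs2 (-0.12). With the slide block 4 falls were left, without replicate 3 of 1-361+362-549 there were 11, and with the round block there were 14 falls and 1 rise.

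Bcl2, the founding anti-apoptotic gene, fell by 4.93 ± 0.26 (adjusted p = 1.11e-08, 30.5-fold). It was read at -0.43, -0.73 and -0.42 in 1-361+362-549, against 4.25, 4.09 and 4.87 in 362-549, and it averaged 3.31 in 1-361, 3.77 in D361E and 3.70 in WT. Its levels in 1-361+362-549 were below those of every other group, and the call held with the slide block. Of 33 BCL2 family and apoptosis genes, 4 were called (12.1%, against 14.6% of all genes), and Bcl2 was the 1 fall, beside rises of Bcl2a1d, Birc3 and the death receptor Tnfrsf10b (0.59 ± 0.14, lost without replicate 1 or 2 of 1-361+362-549). Bcl2l1 (0.05), Mcl1 (-0.20) and Bax (0.04) were not called. The rises numbered 1 to 6 when any array was left out, 1 with the slide block and 12 with the round block, where 4 genes fell.

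Of 26 p53 target genes 1 rose and 6 fell, 26.9% of the list against 14.6% of all genes (median -0.45, 0.16 without scaling). Btg2, an anti-proliferative gene, was read at -1.05, -1.42 and -1.17 in 1-361+362-549, against 0.79, 1.01 and 1.57 in 362-549 (-2.34 ± 0.25, adjusted p = 1.88e-05). Zmat3 fell by 0.82 ± 0.15, Cdkn1a, the cell cycle inhibitor p21, by 0.82 ± 0.23 and Ddb2, of DNA repair, by 0.52 ± 0.13. The falls numbered 2 without replicate 1 or 2 of 1-361+362-549 and 1 with the slide block, where Btg2 was kept, and 14 with the round block. Immediate early genes, which growth signals switch on within minutes, had a negative difference in all 22 tested (median -0.69, and -0.08 without scaling). Called were 4, 18.2% of the list and near the 14.6% of all genes. They were Btg2, Jun (-1.55 ± 0.47), the nuclear receptor Nr4a2 (-0.99 ± 0.27) and Ier3, and the falls numbered 1 to 6 when any array was left out and 12 with the round block. Jun was read at 1.48, 0.62 and 2.30 in 1-361+362-549, against 2.93, 2.45 and 3.65 in 362-549, so that the groups nearly touched, and its call was lost without replicate 1 or 2 of 1-361+362-549 or replicate 1 or 3 of 362-549.

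Among 31 haematopoietic transcription factors 2 rose and 7 fell, 29.0% of the list against 14.6% of all genes (median -0.23, 0.38 without scaling). Id2 fell by 1.84 ± 0.33, with -1.13, -1.64 and 0.31 in 1-361+362-549, against 0.81, 1.04 and 1.22 in 362-549, so that replicate 3 of 1-361+362-549 stood nearer to the other group than its fellows. Cebpb, a myeloid and inflammatory factor, fell by 1.25 ± 0.19, and Runx3, Cebpe and Tal1 by 0.92, 0.72 and 0.49. Hhex rose by 1.42 and Lmo2 by 0.84. The erythroid and megakaryocyte factors Gata1 (-0.38), Gfi1b (-0.03), Fli1 (0.06) and Nfe2 (0.17) were not called. With the slide block 1 fall was left, and with the round block 4 factors rose and 13 fell. Of 26 adhesion genes 5 rose and 3 fell, 30.8% of the list against 14.6% of all genes. The rises were those of Itgb3, Esam, Jam2, Cd81 and Icam1, and 1 to 4 rises were called when any array was left out. Itga4 fell by 1.04 ± 0.19, the selectin ligand Selplg by 0.80 ± 0.15 and Cd63 by 0.44 ± 0.12. With the slide block 1 rise was left, and the round block gave 9 rises and 8 falls.

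Of 38 integrated stress response genes 1 rose (Psph, 0.74 ± 0.17) and 5 fell, 15.8% of the list and near the 14.6% of all genes. The falls included Cth, which makes cysteine and was at least 2.88-fold lower, and the stress-induced regulator Nupr1 (-2.93 ± 0.30, adjusted p = 1.36e-05), while Atf4 (0.11), Ddit3 (-0.68) and Asns (-0.02), the core of that response, were not called. Nupr1 averaged -3.34 in 1-361+362-549, -0.41 in 362-549, -3.28 in 1-361, -1.11 in D361E and -0.75 in WT, so that the low groups were 1-361+362-549 and 1-361. Of 27 chaperones 1 rose (Creld2, 0.57 ± 0.17), 3.70% of the list against 14.6% of all genes. The call of Creld2 was lost without replicate 1 or 2 of either group. The slide block left 0 rises and 2 falls among stress response genes and 0 calls among chaperones, while the round block gave 8 rises and 7 falls, and 8 rises and 4 falls. Of 33 glycolysis and hypoxia genes 2 rose, Hif1a (0.74 ± 0.13) and the lactate exporter Slc16a3 (0.56 ± 0.16), and 1 fell, Pfkfb3 (-0.57 ± 0.14), 9.09% of the list against 14.6% of all genes. The other Hif1a probe differed by 0.17, and the call of Hif1a was lost when a gene's probes were averaged. All 3 calls were lost with the slide block, that of Slc16a3 also without replicate 1 or 2 of 1-361+362-549 or replicate 1 or 3 of 362-549, and that of Pfkfb3 without replicate 1 of either group or replicate 3 of 362-549. Their median of -0.33 was 0.04 with quantile normalization and 0.27 without scaling. Falls numbered 0 to 7 when any array was left out and 8 with the round block.

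Of 32 cholesterol and fatty acid synthesis genes 5 rose and 0 fell (median 0.30). That is 15.6% of the list and near the 14.6% of all genes. Idi1, which makes the isoprenoid building block, was read at 4.35, 4.35 and 3.95 in 1-361+362-549, against 2.18, 2.32 and 2.95 in 362-549 (1.73 ± 0.31, adjusted p = 0.0022). Mvk, Hsd17b7, Nsdhl and Fads2 rose by 0.62, 0.82, 0.86 and 0.76, and Srebf2 (0.50), a regulator of the pathway, was not called. The rises numbered 1 to 3 when any array was left out and 0 with the slide block, but 15 with the round block. Of 52 cell cycle genes 39 had a positive difference (median 0.42), and 7.69% were called, against 14.6% of all genes. Tyms, Rrm2 and Foxm1 rose by 0.75 ± 0.19, 0.61 ± 0.18 and 0.58 ± 0.16, and Cdkn1a fell. None of these 4 was called without replicate 1 or 2 of 1-361+362-549, nor with the slide block. With the round block 26 cell cycle genes rose and 4 fell. Of 36 oxidative phosphorylation genes 2 rose (Ndufs3 and Sdha) and 2 fell (Atp5d and Cox4i1), 11.1% of the list against 14.6% of all genes, with a median of 0.23. None was called with the slide block or the 6 arrays alone, 0 to 7 rose when any array was left out, and 14 rose and 2 fell with the round block. Of these 4 calls that of Atp5d alone was kept without each array in turn.

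The calls among ribosomal protein genes, which are bright, depended on the scaling. Of 40 tested, 30 were called lower and 0 higher (8.91% and 5.66% over all genes). Their differences ran from -0.92 to -0.41, with a median of -0.62. The median was -0.03 with quantile normalization, with 1 call, and -0.01 without scaling, with 0 calls. Rpl22 averaged 6.85 ± 0.28 in 1-361+362-549 and 7.77 ± 0.19 in 362-549, and Rps15 averaged 6.97 ± 0.12 and 7.87 ± 0.24 in those groups. Among the 1526 genes with the highest mean level, ribosomal protein genes included, the median difference was -0.43, 29.4% were called lower and 2.62% higher, and their median was -0.02 with quantile normalization. Sets of like size at lower levels had medians of -0.19 to 0.17. The falls of ribosomal protein genes numbered 6 and 5 without replicate 1 or 2 of 1-361+362-549, 39 without replicate 3, 17 and 6 without replicate 1 or 3 of 362-549, and 0 with the slide block.

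**Figure D5:**
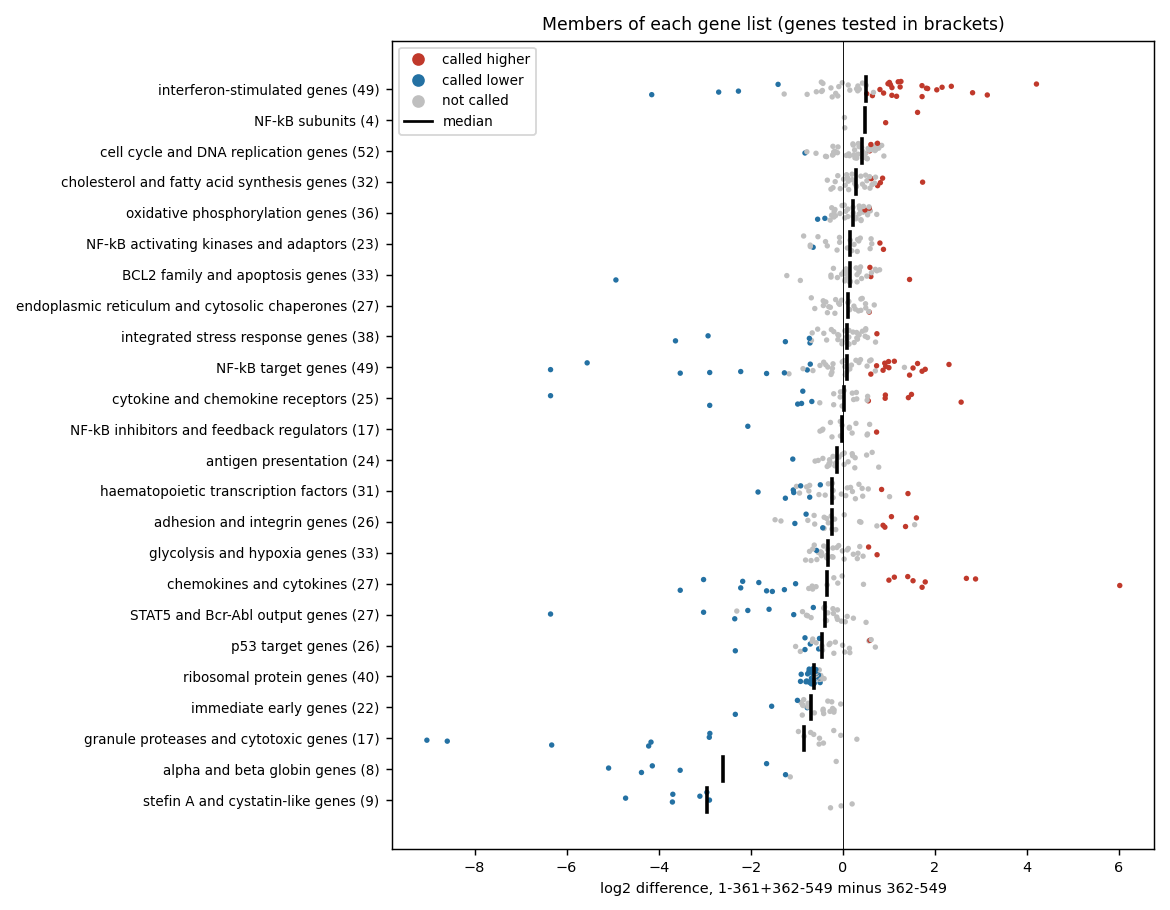
Each row is a gene list with its number of genes tested, each point is a member's log2 difference (1-361+362-549 minus 362-549), and the black bar is the median. Globin genes (median -2.60) and stefin genes (-2.95) lie far to the left, ribosomal protein genes form a tight cluster at -0.62, NF-kB target genes spread to both sides, and most called interferon-stimulated genes lie to the right.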

How the data were processed

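RNA of DA1-3b cells was measured on 17 one-colour Agilent arrays of design 026655. Per the file headers, the deposited intensity values were extracted with Agilent Feature Extraction 10.7.3.1 (protocol GE1_107_Sep09, build mm9), which subtracts background within each array. The deposited value table equalled the processed intensity, with a largest relative difference of 0. Replicates were not pooled, per the labels.

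Log2 processed intensity minus each array's 75th percentile was analysed with limma 3.58.1 in R 4.3.3. Control spots were left out and spots of 1 probe were averaged. Of 39429 probes 19774 were kept, which in 1 or more groups passed the background test on all arrays, and 27419 probes were named through RefSeq accessions and 11878 by the file's name. 1 probe stood for each of 15259 genes, of which 3644 had several probes. All 5 groups entered 1 fit with 12 residual degrees of freedom, and p-values were two-sided and adjusted by Benjamini-Hochberg over all genes. Columns left without a sample numbered 0. On simulated data this comparison found 57% of 2-fold and 82% of 4-fold changes, with 6.71% false calls among those made. The simulation changed 200 of 15259 genes and drew the noise of each gene and array independently. It held no slide or round effect, so these rates need not hold for the real arrays. A bound ("at least") sets the brighter mean against the higher of the array's lowest signal well above background and the dim probe's own. The number of arrays limits the precision.

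Genes named were Rela and, by log2 difference, the 12 largest rises and falls that did not overlap and had ordinary symbols. Up to 4 called members of each list with the smallest adjusted p, and every called member of the NF-kB lists, were added. The order used differences as measured. A gene with only a bound, such as Trim66 (at least 2.16-fold), can therefore precede a fully measured one such as Pf4 (7.38-fold). Other list members named, called or not, were chosen after their values were seen. The members and lists were chosen with earlier results of these data known. Deviations from the group means of arrays of 1 round correlated at 0.211, 0.146 and 0.429. Replicate 1 of 1-361+362-549 nevertheless correlated better with replicate 2 of 362-549 (0.334). The rounds were treated as pairs only in the alternative fit with a block for round. Every SE, p-value and call given as the main result comes from the fit without that block and is unpaired. Alternatives were normexp background correction (offset 50), quantile normalization, no scaling, other probe filters, the mean of all probes, the 6 arrays alone, slide or round as a block, the deposited table and each array left out.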

Additional observations from a re-analysis of the deposited data

How the results depend on the processing

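The number of genes called, 2223, ranged from 879 to 4040 when any 1 of the 6 arrays was left out, and the highest count came without replicate 3 of 1-361+362-549. It was 5455 with no scaling between arrays, 411 with normexp background correction, 1210 with no filter on dim probes (30268 genes tested), 508 with the 6 arrays alone (4 residual degrees of freedom), 269 with slide as a fixed block (7 degrees of freedom) and 6076 with the round as a paired block. It stayed within 1.5 times under quantile normalization (1871), slide as a random block (2304), averaging a gene's probes (2166), the 2 other probe filters (2236 and 1988) and the deposited table (2223). Signs turned for Rela (-0.075 with normexp, -0.0029 without replicate 1 of 1-361+362-549, and up to 0.072 without replicate 3), Mylk (-0.44 at the probe well above background on all arrays), Cox4i1 (0.12 with quantile normalization and 0.22 without scaling) and, without scaling, Ddb2 (0.082), Cd63 (0.17), Pfkfb3 (0.034) and Atp5d (0.059). The cause was not tested. Of 120 called genes named by rule, 83 kept their call without each array in turn, 58 with slide as a block, 71 with the 6 arrays alone and 40 under every alternative they were run under (35 of the named genes were not tested with the filter on all arrays). Slides and groups cannot be told apart within a slide. The round block ended none of the named calls. Dim probes limit what can be said of low genes: 149 called genes have only a bound in 1 group.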
